A study of Danio rerio with 4 samples.

Results

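The Sox and Fox genes encode 2 families of transcription factors that set cell identity. They were taken as every protein-coding gene whose name starts with sox and a number, or with fox, a letter from a to s and a number, leaving out foxi3a and foxi3b. This gave 77 genes, 25 Sox and 52 Fox, of the 42298 genes measured, 26381 of which are protein coding. Sox13 and the long non-coding gene sox2ot are annotated with other gene types and were not members.

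Sox proteins bind DNA through an HMG box, a domain that sits in the minor groove and bends the helix, and they usually act together with a partner factor. Fox proteins bind through a forkhead, or winged-helix, domain, and several of them, the FoxA factors above all, can open closed chromatin. In the vertebrate embryo the classes divide the work by tissue: SoxB1 factors maintain neural progenitors, SoxE factors direct neural crest, glia and cartilage, SoxF factors direct endoderm and vessels, FoxC and FoxF factors direct mesenchyme, FoxJ1 directs motile cilia, and FoxO factors are held out of the nucleus by insulin signalling. Many of these genes exist as an a and a b copy in zebrafish, from the genome duplication in teleost fish.

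RNA was sequenced from mCherry-positive cells sorted out of dissociated zebrafish larvae at 5 days post fertilization (dpf). The wild type group carried Tg(ins:mCherry), a transgene in which the insulin promoter drives the red fluorescent protein mCherry, and the alms1 mutant group carried the same transgene in animals labelled alms1-/-. The alms1 gene encodes a protein of the centrosome and ciliary base, and the allele is not given in the sources used here. Each group had 2 libraries. Cells of many pooled larvae made up a sort, and nothing states that the libraries of a group came from separate sorts, so p-values measure only the spread between libraries, which may be technical.

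The 4 libraries held 42761199 to 50467517 reads on genes. Reads on alms1 itself were present in every library, at 24.9 and 23.1 read counts per 1000000 reads after scaling (CPM) in wild type and 8.98 and 18.4 CPM in the mutants. The difference was not called (log2 fold change -0.81, SE 0.37, edgeR adjusted p = 0.104). The cell type label, β-cell enriched, had little in the reads to rest on. The insulin gene ins had 20 and 61 reads in the wild type libraries against 534 and 447 reads in the mutant ones, while the skin keratin krt4 took 1619266 and 958637 wild type reads against 143158 and 180648 mutant reads. The 20 β-cell genes listed summed to 164 and 110 TPM, which are reads per kb scaled to sum to 1000000 in each library, in wild type and 227 and 320 TPM in the mutants, against 71157 and 41949 TPM in wild type and 10165 and 13246 TPM in the mutants for 12 skin genes. All levels below are those of mixed sorted cells. In such bulk samples, fewer cells of a type and less RNA per cell cannot be told apart.

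In wild type larvae most members had reads. With a gene called detected from 10 reads and a TPM of 1 upward in each of the wild type libraries, 22 of 25 Sox genes (88.0%) and 43 of 52 Fox genes (82.7%) were detected, against 64.0% of all protein-coding genes. TPM here is reads divided by the whole length of the gene, introns included, so genes with long introns read low on this scale. Raising the limit to a TPM of 5 left 13 Sox and 25 Fox genes. The genes under the first limit were sox8a, sox17 and sox32 among the Sox genes, and foxb2, foxg1d, foxh1, foxi1, foxi2, foxn2a, foxp3a, foxp3b and foxq2 among the Fox genes. Sox17 and sox32 act in early endoderm, foxh1 is a partner of Smad proteins in Nodal signalling of the early embryo, and the foxp3 genes are the counterparts of the mammalian regulatory T cell factor.

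One gene held most of the summed Fox TPM, a scale that divides reads by gene length. In reads not divided by length, foxp4, which spans 183 kb, led the Fox genes in wild type. It had 19681 and 26559 of 119494 and 113130 Fox reads, against 18566 and 20116 for foxq1a. Foxq1a, 1.39 kb long on chromosome 2, stood at 1502 and 1320 TPM in the wild type libraries, which was 61.5% and 67.0% of the summed TPM of all Fox genes, and at 251 and 260 TPM in the mutants, 37.5% and 27.4% of that sum. The next Fox genes by mean wild type TPM were foxc1b at 112 ± 26.3 (SD, n = 2), foxo4 at 63.0 ± 21.1, foxc1a at 50.3 ± 1.68, foxd2 at 49.9 ± 25.6 and foxq1b at 49.6 ± 6.74. The libraries of foxc1a, foxd2 and foxq1b overlapped, and those of foxo4, at 77.9 and 48.1 TPM, overlapped theirs, so these 4 genes could not be ordered. The foxc1 genes act in head mesenchyme, somites and vessels, and foxd2 in mesenchyme.

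Summed TPM was shared more evenly among the Sox genes. Sox11a led at 211 ± 72.2 TPM (SD, n = 2), followed by sox4a at 143 ± 66.6, sox3 at 126 ± 43.5, sox11b at 107 ± 82.2, sox19a at 91.1 ± 40.4 and sox2 at 46.0 ± 10.8. From sox11a to sox19a each neighbour in this order differed by less than the larger of its SDs, while sox2 lay below sox19a in both libraries. All 6 read higher in wild type replicate 1 than in wild type replicate 2, with sox11b furthest apart at 165 and 48.5 TPM. The SoxC genes sox4a, sox4b, sox11a and sox11b, which are known from immature neurons and mesenchyme, together made up 55.9% and 48.6% of the Sox TPM in wild type against 49.0% and 54.9% in the mutants. This share therefore overlapped between genotypes.

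The design asks how the alms1 mutants differ from wild type. Values in this comparison are CPM after TMM scaling of library sizes, a scale for comparing 1 gene between libraries and not genes with each other, and log2 fold changes are mutant over wild type. A gene is called lower or higher when the quasi-likelihood test of edgeR gave a p under 0.05 after adjustment by the Benjamini-Hochberg method over the 28079 genes tested. At that threshold 24.3% of all genes tested were lower in the mutants and 19.2% were higher. Of the Sox genes tested, 14 of 24 were lower and 1 was higher, with a median log2 fold change of -1.51. Of the 52 Fox genes, 22 were lower and 5 were higher, with a median of -0.78, while the median over all genes tested was 0.03. Only sox32 had too few reads to test.

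In both mutant libraries 19 Sox genes lay below both wild type libraries, 1 lay above and 4 overlapped. Of the Fox genes 30 lay below, 11 above, and 11 overlapped. Over all genes tested 37.8% lay below and 39.1% above. The scale mattered for the Fox genes. When log2(TPM + 1) was tested with limma, called the TPM scale from here on, the median over all genes moved to 0.69, the Fox median turned to 0.20, with 11 lower and 12 higher, and the Sox median was -0.40, with 6 lower and 2 higher. Of all 28079 genes tested on that scale, 1648 were lower and 9871 were higher, so higher calls were common there. Relative to the median of all genes on the same scale, the medians were -1.09 for Sox and -0.48 for Fox. Without mutant replicate 1 the Sox median was -1.38 and the Fox median -0.84. Without mutant replicate 2 they were -1.67 and -0.77. Leaving out either mutant library also gave fewer calls over all genes tested, so a call lost there need not mean a smaller change.

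**Figure D1:**
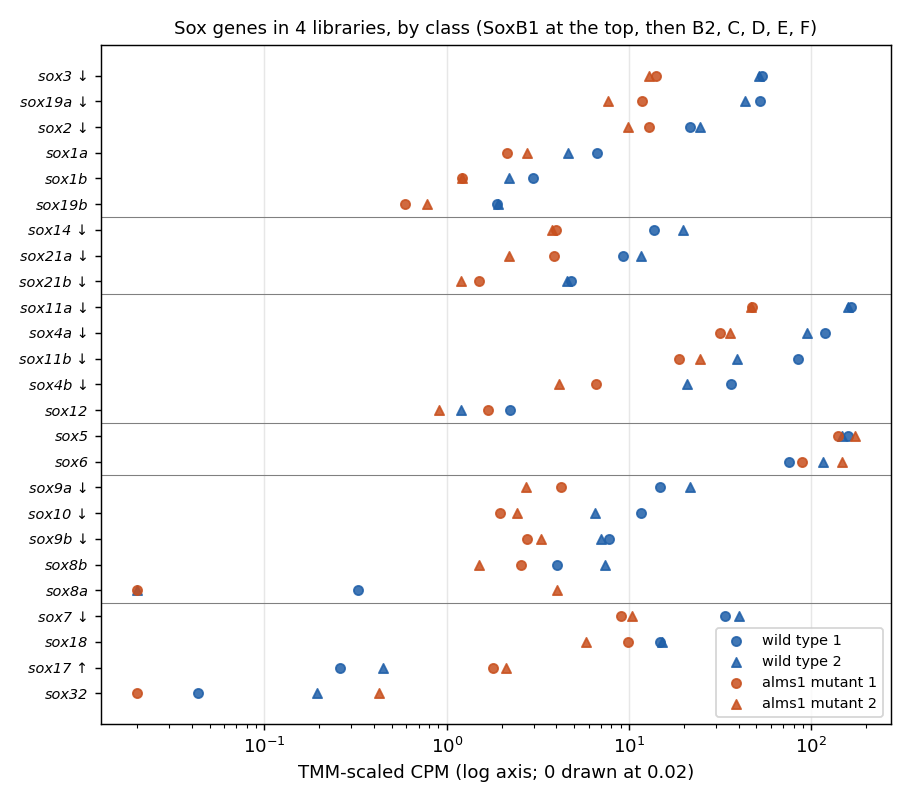
TMM-scaled CPM (log axis, 0 drawn at 0.02) of each Sox gene in the 2 wild type and 2 alms1 mutant libraries, 1 point per library, ordered by class with SoxB1 at the top, and arrows marking calls. The mutant points of 19 genes lie left of the wild type points, sox17 lies right, and the SoxD genes sox5 and sox6 overlap.

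The SoxB1 genes, which keep neural cells in the progenitor state, lay below wild type in both mutant libraries in 6 of 6 cases, and 3 were called lower (2 on the TPM scale). Sox3 stood at 53.4 and 51.4 CPM in wild type and at 14.1 and 12.9 CPM in the mutants. It was 3.88-fold lower (log2 fold change -1.96, SE 0.25, edgeR adjusted p = 0.00101). Sox19a, a SoxB1 gene of fish, stood at 52.2 and 43.1 CPM in wild type and 11.8 and 7.62 CPM in the mutants (log2 fold change -2.29, SE 0.31, edgeR adjusted p = 0.00124). In both genes the difference between genotypes in CPM was several times the spread within either group. In TPM the wild type libraries of both genes lay further apart, as given above.

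Sox2, the factor of neural and other stem cells, fell from 21.5 and 24.4 CPM to 12.9 and 9.86 CPM (log2 fold change -1.01, SE 0.30, edgeR adjusted p = 0.0248). Its call was lost without wild type replicate 2 (log2 fold change -0.92), without mutant replicate 1 (-1.23) and without mutant replicate 2 (-0.83), and on the TPM scale its change was -0.03. Sox1a, sox1b and sox19b were not called, with log2 fold changes of -1.09 to -1.47. Sox1a, sox2 and sox3 lie wholly inside other annotated genes, sox2 inside sox2ot, and none of their reads was counted as mapping to 1 place. The longer genes around them have counts of their own, all uniquely mapped, and these were higher in the mutants. Sox2ot, which spans 179394 bases, had 1161 and 700 wild type reads against 3314 and 4090 mutant reads. The reads per kb of long genes, a level described below, rose too. That level was 8.03 and 5.23 in wild type against 15.0 and 21.8 in the mutants. The part of this level in the counts of the longer genes was not tested, so their rise cannot be set against the falls of sox1a, sox2 and sox3. How reads in an overlap were assigned is not given in the sources used here. With uniquely mapped reads, sox19a was the 1 SoxB1 gene called.

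All 3 SoxB2 genes, which promote neuronal differentiation, were lower. On the TPM scale 1 was lower, and 0 were after subtraction from each gene of its length times the reads per kb of long genes, a level described below. Sox14 stood at 13.8 and 19.7 CPM in wild type and 3.99 and 3.79 CPM in the mutants (log2 fold change -2.10, SE 0.37, edgeR adjusted p = 0.00335). Sox21a changed by -1.79 and sox21b by -1.80. The call of sox21a was lost without mutant replicate 2 (log2 fold change -1.43), and that of sox21b without wild type replicate 1 (-1.66), mutant replicate 1 (-1.97) or mutant replicate 2 (-1.65).

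Of the 5 SoxC genes 4 were lower, 2 on the TPM scale and 1 after the subtraction. Sox11a stood at 164 and 158 CPM in wild type and at 47.1 and 46.8 CPM in the mutants. This was a 3.44-fold difference with little spread in CPM in either group (log2 fold change -1.78, SE 0.22, edgeR adjusted p = 0.00093). In TPM its wild type libraries lay further apart, as given above, and its call was lost on log2(TPM + 0.1). Sox4a fell from 119 and 95.1 CPM to 31.7 and 36.0 CPM, a log2 change of -1.66. Sox4b fell from 36.2 and 20.7 CPM to 6.63 and 4.13 CPM, a log2 change of -2.41. Sox11b had 84.3 and 39.2 CPM in wild type against 18.8 and 24.4 CPM in the mutants. Its wild type libraries were the furthest apart of the 4 genes, and its call was lost without wild type replicate 1 (log2 fold change -0.77) or mutant replicate 1 (-1.35). Sox12 was low and its libraries overlapped (log2 fold change -0.40).

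The list of neural progenitor and neuron genes, which holds no Sox or Fox gene, had 5 of 14 genes lower and 1 higher, or 1 lower and 3 higher on the TPM scale, with a median of -0.63 and summed levels of 670 to 828 TPM in wild type and 727 to 766 TPM in the mutants. Its genes differed in direction. The neuronal RNA-binding gene elavl3 fell from 170 and 213 CPM to 112 and 108 CPM (log2 fold change -0.80). In TPM its libraries overlapped between genotypes, with wild type values of 49.9 and 39.5 against mutant values of 43.7 and 59.6. Elavl4 hardly changed (log2 fold change 0.006), and nes was the gene called higher (1.78). The part of nervous tissue in the SoxB and SoxC values was not tested.

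Neither SoxD gene was called. Sox5, which acts with sox9 in cartilage in mouse, stood at 159 and 148 CPM in wild type and 140 and 173 CPM in the mutants (log2 fold change 0.03, SE 0.23). Sox6, which acts in muscle fibre type in zebrafish, had a log2 fold change of 0.31 (SE 0.31). Both genes overlapped between genotypes, and both span more than 80 kb.

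Of the 5 SoxE genes 3 were lower, while on the TPM scale 1 was lower and 1 higher. Sox9a, a master factor of cartilage, fell from 14.8 and 21.5 CPM to 4.22 and 2.73 CPM (log2 fold change -2.38, SE 0.40, edgeR adjusted p = 0.00282). Sox9b had 7.74 and 7.04 CPM in wild type against 2.76 and 3.30 CPM in the mutants (log2 fold change -1.29), and its call was lost when any 1 library was left out (log2 fold changes -1.12 to -1.42). Sox10, required for pigment cells and peripheral glia of the neural crest, had 11.7 and 6.48 CPM in wild type against 1.97 and 2.44 CPM in the mutants (log2 fold change -2.04). Its call was lost without mutant replicate 1 (log2 fold change -1.91), and all its reads fall within a longer annotated gene, LOC108182763.

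Cartilage genes were mostly lower, as sox9a was: 12 of 14 were called lower, against 24.3% of all genes tested. On the TPM scale 7 were lower, and none was higher on either scale. The median was -2.42, and the list summed to 462 and 347 TPM in wild type and 87.4 and 140 TPM in the mutants. Among them col2a1a, the main collagen of cartilage and notochord, fell from 605 and 893 CPM to 43.5 and 57.3 CPM. The lists of skin genes and of mesenchyme and fin genes, given below, fell as well. The neural crest, pigment and glia list had 4 of 14 genes lower and 3 higher, with a median of 0.38. The part of these cells in the SoxE values was not tested. Sox8b was not called (log2 fold change -1.50, SE 0.55), and sox8a had 15, 0, 0 and 247 reads in wild type replicates 1 and 2 and mutant replicates 1 and 2, so 1 mutant library carried nearly all of its reads.

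The SoxF genes had 1 lower and 1 higher call, but 0 lower and 1 higher on the TPM scale, where the call of sox7 was lost (log2 fold change -0.84). Sox7, a vessel factor, fell from 33.7 and 40.2 CPM to 9.06 and 10.4 CPM (log2 fold change -1.92, SE 0.28, edgeR adjusted p = 0.00154). Sox18, its partner in vessels, stood at 14.8 and 15.2 CPM in wild type and 9.89 and 5.79 CPM in the mutants and was not called (log2 fold change -0.94, edgeR adjusted p = 0.0709). On the TPM scale the log2 fold change of sox18 was 0.000966. The difference between sox7 and sox18 was not tested. Endothelial genes had 3 of 13 lower and 4 higher, with a median of -0.14.

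Sox17 was the 1 Sox gene called higher. It had 12 and 16 reads in the wild type libraries against 89 and 130 reads in the mutants, or 0.260, 0.445, 1.80 and 2.11 CPM (log2 fold change 2.47, SE 0.73, edgeR adjusted p = 0.0253). Its exact 95% Poisson intervals cover counting error only. They were 6.201 to 21.0 and 9.15 to 25.98 reads in wild type and 71.5 to 110 and 109 to 154 reads in the mutants. The reads of sox17 were 0.498 and 1.02 times the level of long genes described below in wild type. In the mutants they were 1.97 and 1.99 times that level. Sox17 was also called higher after the subtraction, but there both of its wild type counts became 0. That call therefore rests on the mutant reads alone and adds no separate support. The sox17 call was lost without wild type replicate 1 (log2 fold change 2.22), mutant replicate 1 (2.57) or mutant replicate 2 (2.35). Sox32, the endoderm factor that lies 48.4 kb from sox17 on chromosome 7, had 2 and 7 reads in the wild type libraries against 0 and 26 in the mutants. The exact 95% Poisson upper limit of the 0 was 3.69 reads. Endoderm, liver and gut genes had 2 of 14 lower and 5 higher (median 0.87), and summed to 80.8 and 67.2 TPM in wild type and 407 and 452 TPM in the mutants. Most of the mutant sum came from fabp2, at 261 and 246 TPM, and tfa, at 72.9 and 95.5 TPM. The 2 genes called lower were gata5 (log2 fold change -1.49) and gata6 (-1.15). The part of endoderm, liver and gut cells in the sox17 value was not tested.

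**Figure D2:**
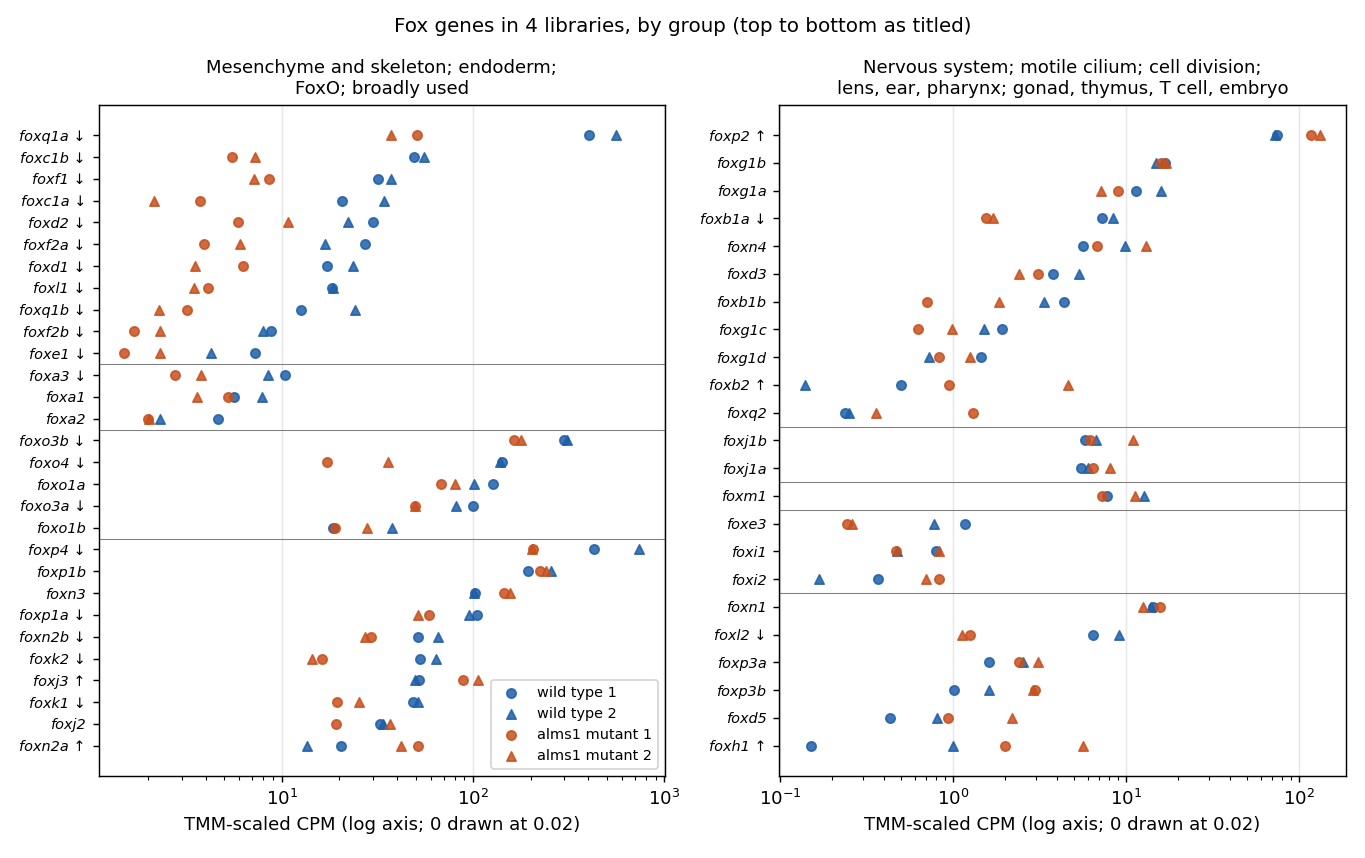
TMM-scaled CPM (log axis, 0 drawn at 0.02) of each Fox gene in the 2 wild type and 2 alms1 mutant libraries, 1 point per library, grouped by role, with arrows marking calls. The 11 genes listed as mesenchyme and skeleton factors, at the top left, all have their mutant points left of wild type, with foxq1a highest.

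The Fox genes listed as mesenchyme and skeleton factors all fell: 11 of 11 were lower, and the median log2 fold change was -2.14. In 11 of 11 both mutant libraries lay below both wild type libraries. The list was set by role, and these data do not show which cells its genes, foxq1a included, were read from. Foxq1a fell from 402 and 559 CPM to 50.6 and 37.0 CPM (log2 fold change -3.46, SE 0.30, edgeR adjusted p = 0.000483). Its chromosome 2 neighbour foxc1a fell from 20.6 and 34.1 CPM to 3.75 and 2.15 CPM (log2 fold change -3.22, SE 0.42). Foxc1b fell from 49.1 and 55.6 CPM to 5.45 and 7.23 CPM, 8.24-fold (log2 fold change -3.04, SE 0.29). Foxq1b fell from 12.6 and 24.1 CPM to 3.20 and 2.28 CPM (log2 fold change -2.74, SE 0.45). These 4 had the largest falls of all members tested in this fit.

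The FoxF and FoxL1 factors pattern the mesenchyme around the gut and in the face. Foxf1 stood at 31.7 and 37.1 CPM in wild type and 8.55 and 7.13 CPM in the mutants (log2 fold change -2.13, SE 0.29, edgeR adjusted p = 0.00124). Foxf2a fell from 27.2 and 16.9 CPM to 3.93 and 6.03 CPM, and foxf2b, with 8.73 and 7.92 CPM in wild type, had a log2 change of -2.07. Foxl1 had 18.3 and 18.5 CPM in wild type against 4.11 and 3.46 CPM in the mutants (log2 fold change -2.28, SE 0.35).

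Foxd1 fell from 17.3 and 23.6 CPM to 6.28 and 3.53 CPM, a log2 change of -2.06. Foxd2 had 30.0 and 22.2 CPM in wild type against 5.90 and 10.8 CPM in the mutants. Its reads all lie inside the non-coding gene LOC103911496, and its call was lost without mutant replicate 1 (log2 fold change -1.28). Foxe1, a factor of the thyroid and pharynx, had the smallest fall of the 11 genes (log2 fold change -1.60, edgeR adjusted p = 0.0381). That call was lost without wild type replicate 1 (log2 fold change -1.07), mutant replicate 1 (-1.34) or mutant replicate 2 (-1.94).

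Genes listed for mesenchyme and fin fell too, and so did genes of skin, a different tissue. Of the 14 mesenchyme and fin genes 13 were lower, 6 on the TPM scale, and none was higher on either scale, with a median of -2.10, and they summed to 1035 and 748 TPM in wild type and 360 and 421 TPM in the mutants. Among them twist1a, a factor of head mesenchyme, fell from 89.9 and 117 CPM to 25.1 and 16.7 CPM, and alx1 had no read in 1 library. All 12 skin genes were lower, 10 on the TPM scale, with a median of -3.01, and epcam, an adhesion protein of epithelia, fell from 544 and 636 CPM to 98.6 and 80.9 CPM. Whether the values of the 11 Fox genes follow the amount of mesenchyme or skin cells in the sort was not tested. Called lower were 6 of the 11 after the same subtraction, and 8 of 11 on the log2(TPM + 1) scale. The median of the 11 was -1.10 on that scale.

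Of the 3 FoxA genes, the pioneer factors of liver, gut and pancreas, foxa3 was lower, from 10.4 and 8.43 CPM to 2.76 and 3.79 CPM (log2 fold change -1.52, edgeR adjusted p = 0.0201). Its call was lost on the TPM scale (-0.49), after the subtraction (-1.37) and without wild type replicate 1 (log2 fold change -1.27), mutant replicate 1 (-1.32) or mutant replicate 2 (-1.77). Foxa2, which is needed for endoderm and floor plate, had 4.64 and 2.31 CPM in wild type against 1.99 and 2.02 CPM in the mutants and was not called (log2 fold change -0.80, SE 0.57, and 0.21 on the TPM scale). The 2 wild type libraries of foxa2 differ by more than the lower of them differs from the mutants.

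The FoxO genes, the targets of insulin and Akt signalling, had 3 of 5 called lower, or 1 on the TPM scale and 0 after the subtraction. Foxo4 fell from 141 and 138 CPM to 17.2 and 36.1 CPM (log2 fold change -2.39, SE 0.35, edgeR adjusted p = 0.00161). Its reads all fall inside si:ch211-126c2.4, a protein-coding gene on the opposite strand, and the libraries carry no strand, so reads of the 2 strands cannot be told apart. That gene was counted at 610 and 266 reads in wild type and 510 and 484 reads in the mutants. Foxo3a (log2 fold change -0.87) and foxo3b (-0.83) were called lower on the count scale, but on the TPM scale their changes were 0.12 and 0.15. Both calls were lost without mutant replicate 1 (-0.87 and -0.79) or mutant replicate 2 (-0.87 and -0.89). Foxo1a and foxo1b were not called, with log2 fold changes of -0.62 and -0.26.

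Among 10 broadly used Fox genes 5 were lower and 2 were higher, whereas on the TPM scale 0 were lower and 3 higher. Foxk2 fell from 53.0 and 64.0 CPM to 16.2 and 14.3 CPM (log2 fold change -1.94, SE 0.25, edgeR adjusted p = 0.00112). Foxk1 and foxp4 were also lower, at -1.16 and -1.51, and foxp1a at -0.85, with 0.11 for foxp1a on the TPM scale. The foxk1 call was lost without mutant replicate 1 (-0.99). Foxp4 lost its call without mutant replicate 1 (-1.53) or 2 (-1.50), as did foxp1a (-0.96 and -0.76). Foxp1b, foxj2 and foxn3 were not called.

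Foxn2a was higher, from 20.3 and 13.6 CPM to 51.3 and 41.9 CPM, 2.75-fold (log2 fold change 1.46, SE 0.29, edgeR adjusted p = 0.00526). Its copy foxn2b, chosen for mention after its values were seen, was lower, from 51.5 and 65.7 CPM to 29.2 and 27.0 CPM (log2 fold change -1.06, and -0.05 on the TPM scale). The foxn2b call was lost without mutant replicate 1 (-1.13) or mutant replicate 2 (-1.004). Foxn2a took 17.0% and 9.67% of the summed TPM of the pair in wild type against 47.7% and 44.6% in the mutants. Foxj3, likewise mentioned after its values were seen, rose from 52.4 and 49.6 CPM to 88.1 and 106 CPM (log2 fold change 0.93), and its call was lost without mutant replicate 2 (0.79).

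The 11 Fox genes of the nervous system had 1 lower and 2 higher, or 1 lower and 4 higher on the TPM scale. Foxp2, a factor of brain circuits, stood at 74.3 and 73.1 CPM in wild type and 117 and 132 CPM in the mutants (log2 fold change 0.76, SE 0.22, edgeR adjusted p = 0.0226), and its call was lost without mutant replicate 1 (0.83) or mutant replicate 2 (0.67). Foxg1a, the forebrain factor, had 11.5 and 16.0 CPM in wild type against 8.94 and 7.18 CPM in the mutants and was not called (log2 fold change -0.77, and 0.19 on the TPM scale). Foxd3, which acts in early neural crest, had 3.79 and 5.37 CPM in wild type against 3.08 and 2.41 CPM in the mutants and was not called either (-0.74, and 0.24 on the TPM scale). The other 2 calls, named after their values were seen, were foxb1a, lower (-2.27), and foxb2, higher (3.10), and neither was called after the subtraction. Foxb2 had 23, 5, 47 and 284 reads, so its mutant libraries differ more from each other than mutant replicate 1 does from wild type. It lost its call without wild type replicate 2 (2.49) or mutant replicate 2 (1.56).

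Foxj1a, the master factor of motile cilia, stood at 5.46 and 6.06 CPM in wild type and 6.40 and 8.03 CPM in the mutants, and was not called (log2 fold change 0.33, SE 0.40, edgeR adjusted p = 0.527). Foxj1b was not called either (0.46, SE 0.43). On the TPM scale foxj1b was called higher (1.18) and foxj1a was not called (0.91), while the median over all genes was 0.69. Of 12 motile cilium genes 5 were higher and none was lower, with a median of 0.58, against 19.2% of all genes tested higher. Foxm1, which drives mitotic genes, overlapped between genotypes at 7.76 and 12.7 CPM in wild type and 7.21 and 11.2 CPM in the mutants (log2 fold change -0.15, SE 0.41). Of 14 cell division genes 7 were lower and none was higher, whereas on the TPM scale 0 were lower and 2 higher. Among them mki67, the proliferation antigen, fell from 91.5 and 88.2 CPM to 45.5 and 39.0 CPM.

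Among the 9 remaining Fox genes, those of lens, ear, pharynx, gonad, thymus, T cells and early embryo, 7 were not called. Foxl2, the ovarian and craniofacial factor, fell from 6.48 and 9.15 CPM to 1.26 and 1.12 CPM (log2 fold change -2.71, SE 0.49, edgeR adjusted p = 0.00357), and was not called after the subtraction (-2.57). Foxh1, named after its values were seen, had 7, 36, 98 and 347 reads in wild type replicates 1 and 2 and mutant replicates 1 and 2. These were 0.13, 1.06, 1.00 and 2.44 times the level of long genes described below. It had no value after the subtraction. In the edgeR fit it was called higher (2.74). That call was lost without wild type replicate 1 (2.03) or mutant replicate 2 (1.80). Foxn1, the thymic epithelial factor, had a log2 fold change of -0.01 (SE 0.31).

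**Figure D3:**
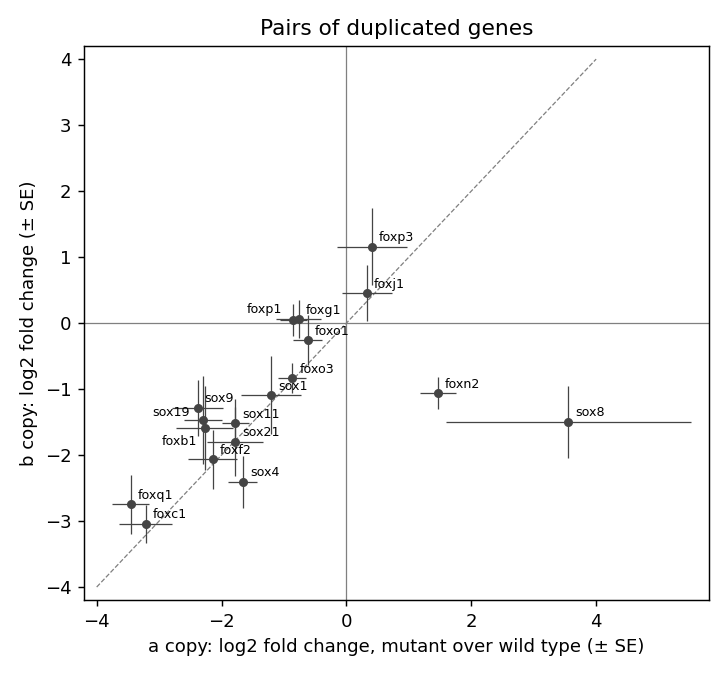
Log2 fold change, mutant over wild type, of the b copy against the a copy for 18 duplicated pairs, with bars of 1 SE and a dashed line of equal change. The 8 pairs with both copies called lower are at the lower left, foxn2 sits at the lower right with opposite calls, and sox8, also at the right, has no call and the longest bar.

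Duplicated copies mostly had the same call. Of 18 pairs with both copies measured, both were lower in 8, both were not called in 6, 1 copy was called in 3 (foxb1, foxp1 and sox19) and foxn2 had opposite calls. Foxq1a held 97.1% and 96.0% of the TPM of its pair in wild type against 94.3% and 94.5% in the mutants. Sox9a held 72.9% and 81.1% in wild type against 68.3% and 53.8% in the mutants, with a wider spread within each genotype. In both pairs both mutant shares of the a copy lay below both wild type shares. With 2 libraries a group, no such share was tested.

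Several of the genes that fell lie next to each other. On chromosome 2, in the GRCz10 build, foxc1a (814507 to 816686), foxf2a and foxq1a (848413 to 849804) follow one another, with 24.7 kb between foxc1a and foxf2a and 4.35 kb between foxf2a and foxq1a. On chromosome 20 the copies foxq1b (26784850 to 26786305), foxf2b and foxc1b (26803285 to 26805235) lie with gaps of 4.61 and 9.43 kb. All 6 genes of these 2 clusters were called lower, with log2 fold changes of -2.07 to -3.46. The clusters are made of the foxc1, foxf2 and foxq1 pairs already counted above. On chromosome 8, foxe3 and foxd2 lie 4.05 kb apart, and there foxd2 was called lower and foxe3 was not called.

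Calls varied with gene length, among all genes as among members. Reads were counted across whole genes, and for all 77 members the annotated exon length equals the gene length. Most members are short: 51 span under 10 kb, 20 Sox and 31 Fox. Among protein-coding genes under 10 kb, 32.1% were lower and 8.66% were higher, with a median of -0.57. In that class 13 of 19 Sox genes tested were lower and 1 higher, with a median of -1.66, and 16 of 31 Fox genes were lower and 2 higher, with a median of -1.60. Among protein-coding genes of 10 to 80 kb, 26.2% were lower and 19.2% were higher. There 1 of 3 Sox genes was lower, and 4 of 14 Fox genes were lower and 1 higher.

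Above 80 kb, 4.78% of protein-coding genes were lower and 57.4% were higher, with a median of 0.82. The 9 members of this length gave 2 lower (foxp1a and foxp4) and 2 higher (foxj3 and foxp2) calls. Their medians were 0.17 for the 2 Sox genes and 0.04 for the 7 Fox genes.

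**Figure D4:**
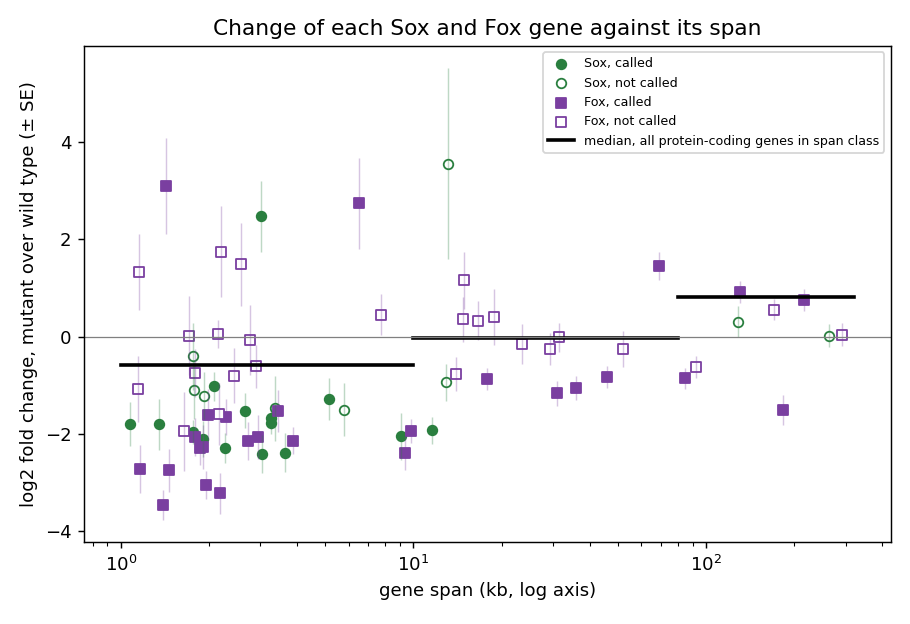
Log2 fold change, mutant over wild type (± SE), of each Sox and Fox gene against the length of the gene in kb (log axis), with the medians of all protein-coding genes in 3 length classes, -0.57, -0.02 and 0.82, for comparison. Short members lie mostly below their class, and the 2 longest, foxp1b and sox5, lie at 0.04 and 0.03.

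Long genes also set a level that differs between the genotypes. Over 1509 protein-coding genes of 80 to 160 kb, the 10th percentile in reads per kb was 8.03 and 5.23 in wild type against 15.0 and 21.8 in the mutants. The median Sox gene stood at 16.8 and 16.5 times this level in wild type and at 3.13 and 2.52 times in the mutants. The median Fox gene stood at 8.63 and 8.51 times in wild type and at 2.50 and 2.51 times in the mutants. Of the 25 Sox genes 3 and 2 lay under the level in wild type against 4 and 5 in the mutants, and of the Fox genes 5 did so in each library.

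Foxq1a was far above this level in every library, at 1662, 2765, 119 and 75.2 times it. Sox10 crossed it, from 7.40 and 4.91 times in wild type to 0.712 and 0.759 times in the mutants. The long genes called higher kept close to it: foxp2 stood at 1.98 and 2.33 times in wild type and 1.78 and 1.72 times in the mutants, foxj3 at 2.31, 2.62, 2.23 and 2.29 times, and foxn2a at 1.68, 1.35, 2.44 and 1.71 times. For foxp2 and foxj3 the ratio to long genes thus did not rise with the CPM, and for foxn2a both mutant ratios were above both wild type ratios. Yet foxp2, foxj3 and foxn2a each stayed called higher after subtraction of this level, where foxj3 had a log2 fold change of 1.52. What produces reads across long genes was not tested.

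**Figure D5:**
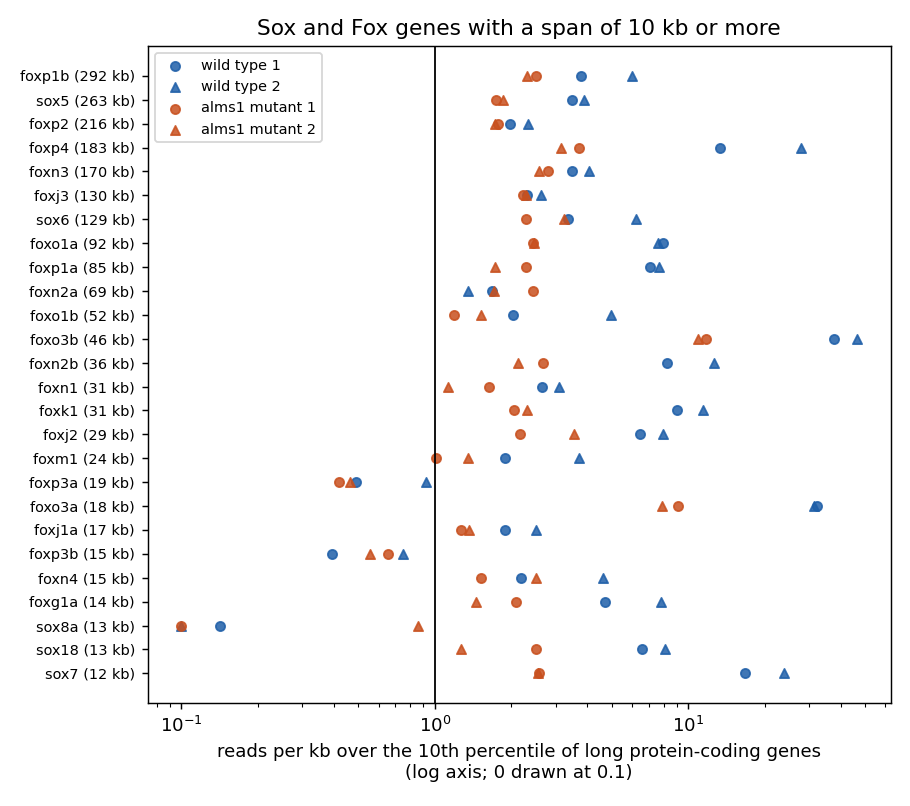
Reads per kb of the Sox and Fox genes of 10 kb or more, divided by the 10th percentile for long protein-coding genes in the same library (log axis), 1 point per library, with that level drawn at 1. Foxp2 and foxj3 stay near 2 in all 4 libraries, while foxp4 goes from 13.4 and 27.8 in wild type to 3.70 and 3.14 in the mutants.

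Calls differed in how well they held. Of the 42 members called, 22 were kept in all 4 fits that left out a library, 8 Sox and 14 Fox. Across every alternative that gave a value, 10 were called in the same direction: sox3, sox9a and sox19a among the Sox genes, and foxc1a, foxc1b, foxf1, foxl1, foxn2a, foxq1a and foxq1b among the Fox genes. Of these, sox3 has no uniquely mapped reads and so no value in that alternative. Foxn2a, which spans 69.2 kb, has no value in the fit of genes under 10 kb.

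For 8 members, foxd2, foxe3, foxo4, sox1a, sox2, sox3, sox8a and sox10, no read was counted as uniquely mapped, and these are the same 8 that lie wholly inside another annotated gene. The other 69 had more than 50% of their reads uniquely mapped. The surrounding genes have separate counts, and how reads in the overlaps were assigned is not given in the sources used here.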

How the data were processed

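RNA of FACS-sorted mCherry-positive cells was sequenced from Nextera XT libraries of 4 samples, wild type and alms1 mutant, 2 each. The authors aligned paired reads with CLC Genomics Server to GRCz10 (written GRZ10 in the methods). They deposited 1 table per library with read counts per gene, all and uniquely mapped, and with TPM and RPKM values computed by their program. The tables hold no exon-exon reads, and exon length equals gene length for 99.4% of genes. RPKM was used for 1 detection alternative.

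Total exon reads were tested, or total gene reads for genes with no annotated exon. The test was that of edgeR 4.0.16 (TMM, filterByExpr, quasi-likelihood F test, Benjamini-Hochberg over 28079 genes, 0.05), using all 4 libraries and no block. The biological coefficient of variation was 0.340. Alternatives used DESeq2 1.42.0, limma 3.58.1 on log2(TPM + 1) and log2(TPM + 0.1), other filters, uniquely mapped reads, subtraction of the long-gene level, genes under 10 kb, the replicate number as a block, and each library left out. Counts of 28079 genes were simulated with 200 genes changed, and 27735 genes passed the filter and were fitted. The test called 62% of genes lowered 4-fold, 16% of those lowered 2-fold, 74% of those raised 4-fold and 30% of those raised 2-fold. The simulation gave 96 calls, while the data gave 6835 lower and 5380 higher. Its percentages therefore cannot be read as the share of changes found in this comparison.

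Named genes were the 8 Sox and 12 Fox genes with the smallest adjusted p whose libraries did not overlap, the 6 of each family with the highest wild type TPM, and 16 fixed genes. The members and lists were chosen with earlier results of these data known. No sequences were used here.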

Additional observations from a re-analysis of the deposited data

How the results depend on the processing

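In the edgeR fit 14 of 24 Sox genes were called lower. With limma the count was 6 of 24 on log2(TPM + 1) and 5 of 24 on log2(TPM + 0.1). It was 7 of 23 after subtraction of the long-gene level and 7 of 19 in a separate fit of genes under 10 kb. For Fox genes the edgeR fit gave 22 of 52. The same alternatives, in that order, gave 11 of 52, 10 of 52, 10 of 47 and 13 of 31. Of all genes, 3579 of 23201 were lower after the subtraction and 1643 of 12079 in the separate fit, against 6835 of 28079 with edgeR. The calls by gene length given above came from the fit of all genes. Sox genes called higher were 2 on log2(TPM + 1). Fox genes called higher were 12 on log2(TPM + 1), 9 on log2(TPM + 0.1) and 2 among genes under 10 kb. Leaving out 1 library gave 9 to 12 Sox genes lower, 0 to 1 higher, 13 to 23 Fox genes lower and 1 to 5 higher. The Sox median minus the median of all genes, -1.54, was -1.09 on log2(TPM + 1) and -1.11 after the subtraction, and the Fox value, -0.82, was -1.34 among genes under 10 kb. Detected in wild type were 13 Sox and 25 Fox genes at a TPM of 5, and 13 and 23 with RPKM in place of TPM. The causes were not tested. With the replicate number as a block, Fox genes called higher fell to 3, with 20 lower, and Sox genes were 13 lower and 1 higher. The deviations of same-numbered libraries had a correlation of -0.08. With 2 libraries a group this value cannot decide whether the numbers mark a pairing.

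On log2(TPM + 1) and log2(TPM + 0.1) these log2 fold changes turned positive: foxa2 0.21 and 0.27, foxd3 0.24 and 0.26, foxg1a 0.19 and 0.23, foxm1 0.62 and 0.82, foxo3a 0.12 and 0.13, foxo3b 0.15 and 0.16, foxp1a 0.11 and 0.14, and sox18 0.000966 and 0.00523. Foxj1a turned to -0.12 after the subtraction, and foxm1, with 1 library left out at a time, ranged from -0.50 to 0.26 (0.26 without wild type replicate 2 and 0.12 without mutant replicate 1). The 2 libraries in each group limit the precision of every value, and intervals from reads cover counting error only.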
